A study of Rattus norvegicus with 39 samples.

Results

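Tap1, Tap2, Psmb8, Psmb9, Mx2 and Ubd were 6 of the 23978 genes in the table of estimated read counts, chosen by name through the Ensembl identifier that the study pairs with each symbol. They were followed in polyribosomal RNA from medium spiny neurons (MSNs), the principal projection neurons of the nucleus accumbens (NAc). Female Long Evans rats heterozygous for Drd1a-iCre (D1-Cre) or Drd2-iCre (D2-Cre) carried a virus that, only where Cre recombinase was made, expressed the ribosomal protein Rpl22 with an HA tag. Tagged ribosomes were immunoprecipitated (IP) from punches of 2 mm taken from single rats, and 1 IP library per rat was used here, 39 in all, while the input RNA of the same punches was not analysed here. Rats received 6 injections of 10 mg/kg racemic ketamine or of saline, 1 every 4 days and sometimes 5, always in proestrus or always in diestrus, and tissue was taken 4 days after the last session, 30 min after a return to the test chamber. This gave 8 groups: D1-Cre and D2-Cre rats, in proestrus or diestrus, given saline or ketamine, with 5 libraries in each of 7 groups and 4 in the D2 proestrus ketamine group, from which the study excluded 1 IP library as an outlier. Every group, saline included, had carried the virus and the surgery, and the ketamine rats had been kept only if their locomotor activity rose over treatment, a limit on the comparison with saline. Drd2 is also expressed by cholinergic interneurons of the NAc, so the D2-Cre line is not restricted to MSNs, and the rats were adult, with no age given in the sources used here.

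Tap1, Tap2, Psmb8 and Psmb9 serve successive steps by which a cell shows fragments of its own proteins to CD8 T cells. Interferon replaces catalytic subunits of the proteasome with Psmb8 and Psmb9, giving the immunoproteasome, and the peptides it cuts are pumped into the endoplasmic reticulum by the heterodimer of Tap1 and Tap2 for loading on MHC class I. Ubd encodes FAT10, a ubiquitin-like protein induced by interferon gamma and tumor necrosis factor that marks proteins for the proteasome, and Mx2 encodes a dynamin-like GTPase of the antiviral interferon response. In neurons at rest MHC class I presentation is held low, and MHC class I molecules are also known there for roles at synapses.

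Tap2, Psmb8, Tap1 and Psmb9 are consecutive genes of the rat MHC on chromosome 20, between RT1-DOb and RT1-DMb (Tap1 is ENSRNOG00000000457, Tap2 ENSRNOG00000000455, Psmb8 ENSRNOG00000000456 and Psmb9 ENSRNOG00000000459). Ubd (ENSRNOG00000000767) lies elsewhere on chromosome 20 and Mx2 (ENSRNOG00000001963) on chromosome 11. No other protein-coding gene overlapped any of the 6. Tap1 and Psmb9 are transcribed away from each other from start sites 456 bases apart. The stretches from 130 bases before to 20 after the start are shown for the 4 neighbors, since 3 of them hold a match to the interferon-stimulated response element, searched on both strands as GAAA, any 2 bases and GAAA again, and set in capitals. They are RefSeq sequences of the build GRCr8, written 5′ to 3′ on the gene's strand, and the read counts themselves were made on another build, mRatBN7.2.

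Tap2, chr20:4652277-4652426, minus strand: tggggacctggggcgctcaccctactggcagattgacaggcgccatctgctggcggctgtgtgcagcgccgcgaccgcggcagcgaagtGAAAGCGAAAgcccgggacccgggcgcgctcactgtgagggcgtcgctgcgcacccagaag
Psmb8, chr20:4657012-4657161, minus strand: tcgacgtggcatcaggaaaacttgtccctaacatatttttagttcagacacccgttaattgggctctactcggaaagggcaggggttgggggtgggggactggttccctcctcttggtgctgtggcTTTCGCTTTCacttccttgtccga
Tap1, chr20:4668524-4668673, minus strand: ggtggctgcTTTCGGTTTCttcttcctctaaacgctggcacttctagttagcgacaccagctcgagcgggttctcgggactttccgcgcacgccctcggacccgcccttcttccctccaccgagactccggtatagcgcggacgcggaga
Psmb9, chr20:4668870-4669019, plus strand: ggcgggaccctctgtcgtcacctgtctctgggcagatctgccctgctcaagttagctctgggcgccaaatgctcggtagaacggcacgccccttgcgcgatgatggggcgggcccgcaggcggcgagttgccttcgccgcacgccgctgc

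Counted from the start site, the match ran from -41 to -32 in Tap2, from -121 to -112 in Tap1 and from -4 to 6 in Psmb8, where it lies over the start itself. Psmb9 and Ubd had none in their windows of 300 bases, and the windows of Tap1 and Psmb9 share 44 bases. The same letters occur in 3.92% of 33469 rat promoter windows of that length. A gamma-activated site, searched as TTCNNNGAA, was found, among the 5 windows searched (there was none for Mx2), in that of Psmb8 alone, at -245 to -237, against 8.87% of all windows. The NF-kappa B pattern, GGG, any 5 bases and CC, present in 47.3% of all windows, matched 2 times in Tap1, 7 times in Psmb9 with overlapping matches counted, and once in Ubd, and in neither Tap2 nor Psmb8. These are matches of letters and no record of binding.

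Library totals ran from 2396517 to 43224256 estimated reads, with a median of 20494896, and all but library 39 (D2 diestrus saline, the smallest) held at least 16118050. Levels are given as normalized CPM (counts scaled to a common library total after TMM correction), which are not corrected for transcript length and so are compared between samples and not between genes. A gene seen at 0 could have had up to 3 counts, a limit of 0.0698 to 1.25 CPM by library with a median of 0.146, and for every library but 39 at most 0.184. This limit covers counting error only. Adora2a, a marker of D2-MSNs, lay between 141 and 221 CPM in the 20 D1 libraries and between 764 and 1063 in 18 of the 19 D2 libraries. Library 32 (D2 diestrus ketamine) had 453 CPM of Adora2a and, at 205 CPM, the lowest level of the MSN gene Rgs9 of all 39. Fold changes given for its comparisons that turned sign without it are given both ways. None of the 4 D1-MSN markers sought had an identifier paired with its symbol in the sources used here.

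All 6 genes were low, and for Psmb8, Psmb9 and Ubd the depth set what could be seen. Tap2 had a median of 81 counts per library (range 14 to 136) and Mx2 a median of 184 (8 to 570). Tap1 had a median of 28 counts (4 to 81) and reached 10 counts in 38 of 39 libraries. Psmb9 had a median of 11 (1 to 41) and reached 10 counts in 25 libraries, and Psmb8 a median of 7 (1 to 19) and 10 counts in 12 libraries. Ubd gave 46 counts in all 39 libraries together, with 17 libraries at 0, 33 under 3 counts and none above 7. The filter on low counts therefore removed Ubd from every comparison. It left Psmb8 in 7 of the 17 comparisons, and it removed Psmb9 from D2 against D1 in diestrus saline rats and from proestrus against diestrus in D2 saline rats.

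**Figure D1:**
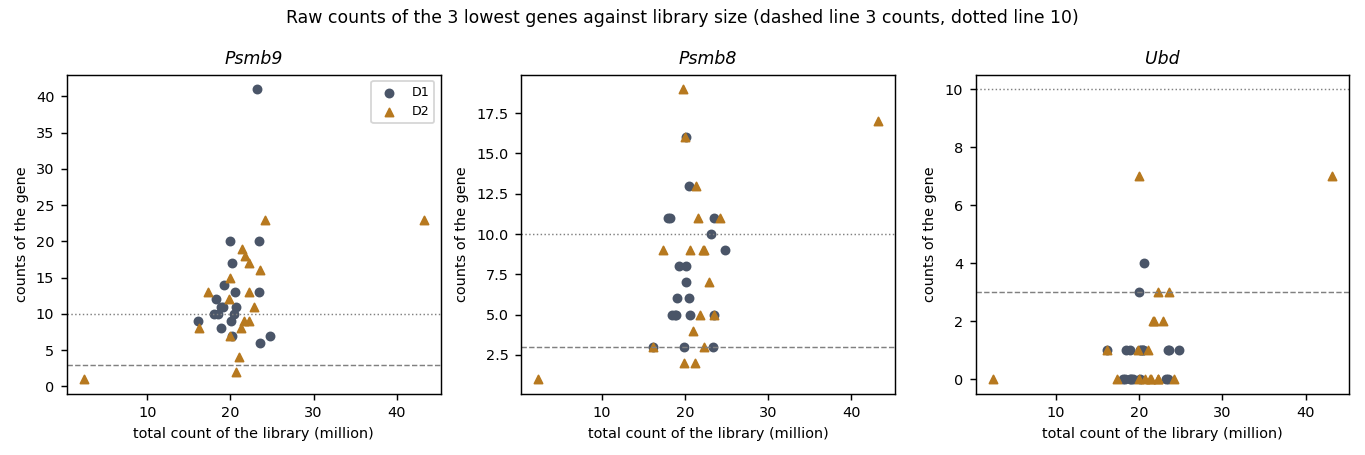
Raw estimated counts of Psmb9, Psmb8 and Ubd (y axis) against the total count of the library (x axis), 1 point per library, circles for D1 and triangles for D2. The dashed line is 3 counts and the dotted line 10, and Ubd lies under 10 in all 39 libraries while Psmb9 reaches it in 25.

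Tap1 mean levels ran from 1.27 ± 0.374 CPM (SD, n = 5) in D1 diestrus ketamine rats to 1.74 ± 0.980 (n = 5) in D2 diestrus ketamine rats, and the other 6 groups had means between 1.29 and 1.43 CPM. The highest group mean was 1.37 times the lowest. The ends of the order of means differed by 0.474 CPM, less than the SD of the upper one, and so no neighbors in it differed by more than that. That SD came from 1 library: in the D2 diestrus ketamine group library 32 had 81 counts (3.47 CPM), and the other 4 had 1.04, 1.39, 1.40 and 1.41 CPM. Without library 32 the group stood at 1.31 ± 0.177 CPM (n = 4), inside the range of the other means.

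Tap2 forms the transporter with Tap1. Its group means ran from 3.33 ± 0.934 CPM (SD, n = 5) in D1 diestrus ketamine rats to 4.46 ± 1.14 (n = 5) in D2 proestrus saline rats, a ratio of 1.34. The 1.14 CPM between the ends was no larger than the SD of the upper group. Single libraries lay between 2.20 CPM (library 9, D1 proestrus saline) and 5.83 CPM (library 32, with 136 counts, and library 39, whose 5.83 CPM rests on 14 counts).

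Psmb8, the immunoproteasome subunit that replaces Psmb5, had group means from 0.282 ± 0.104 CPM (SD, n = 5) in D2 diestrus ketamine rats to 0.461 ± 0.316 (n = 5) in D2 proestrus saline rats. In the latter group single libraries ran from 0.0954 to 0.949 CPM, which is 2 against 19 counts. Psmb9, which replaces Psmb6, had group means from 0.461 ± 0.245 CPM (n = 5) in D2 proestrus saline rats to 0.724 ± 0.589 (n = 5) in D1 proestrus saline rats. Library 25 alone had 41 counts of Psmb9 (1.76 CPM) where the other 4 of D1 proestrus saline had 7 to 13, and without it that group stood at 0.467 ± 0.142 CPM (n = 4), near the lowest group. The ends of the order of means differed by 0.180 CPM for Psmb8 and by 0.263 CPM for Psmb9, each less than the SD of its upper group.

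Ubd was at or under the limit in nearly every library. Its 14 counts in the 4 D2 proestrus ketamine libraries fell as 7 in library 38 (0.354 CPM), 7 in library 22 (0.163 CPM) and 0 in libraries 6 and 30. The 5 D2 proestrus saline libraries had 2, 1, 0, 0 and 0 counts. The other groups held 2 counts (D1 proestrus saline), 3 (D1 proestrus ketamine), 4 (D1 diestrus saline), 8 (D1 diestrus ketamine), 6 (D2 diestrus saline) and 6 (D2 diestrus ketamine). Pooled over its libraries, a group stood between 0.0188 CPM in D1 proestrus saline and 0.130 CPM in D2 proestrus ketamine rats, and the ranges of the 2 D2 proestrus groups overlapped at 0. With no filter on low counts edgeR tested Ubd in all 17 comparisons and called it in none. The share of all genes called in these fits was 22.9% for D2 against D1 over all libraries. For D2 against D1 among saline rats it was 17.9% with stages joined, 4.69% in proestrus and 4.4% in diestrus. In the other comparisons it was at most 0.011%. The lowest unadjusted p of Ubd was 0.0578 (edgeR adjusted p = 1), for ketamine in D2 proestrus rats, at a log2 fold change of 2.56 ± 1.25 (SE), a value that rests on the 14 counts of libraries 38 and 22 against 3 counts.

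Mx2 group means lay closer together than the libraries inside the groups. They ran from 8.11 ± 3.08 CPM (SD, n = 5) in D1 diestrus saline rats to 10.4 ± 2.35 (n = 5) in D2 diestrus ketamine rats, a ratio of 1.28, whereas within a group the highest library was between 1.39 and 3.65 times the lowest. Without library 32 the D2 diestrus ketamine group stood at 9.56 ± 1.60 CPM (n = 4). The variance that counting alone gives was 6.05% of the variance of Mx2 CPM over the 39 libraries. The same share was 55.0% for Psmb8, 41.4% for Psmb9, 39.2% for Tap1 and 27.1% for Tap2, and without the shallow library 39 it was 44.0%, 36.1%, 31.1% and 22.5%. The SD of log2 CPM over the 39 libraries was 0.48 for Mx2, 0.39 for Tap1 and 0.36 for Tap2, beside a median of 0.19 over the 14129 genes that passed the filter. Rat Mx genes are close paralogs, and how reads were shared among them was not examined.

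**Figure D2:**
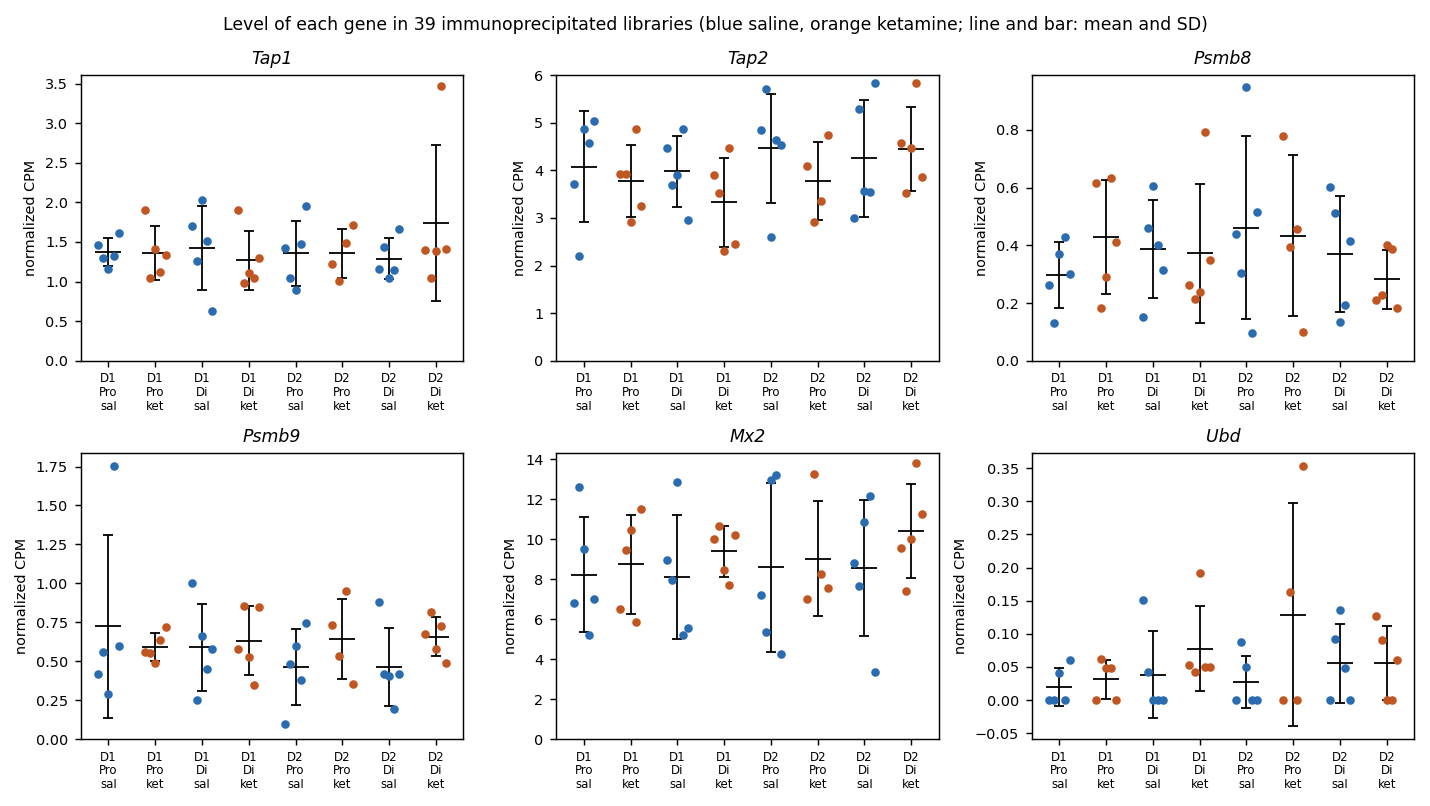
Normalized CPM (y axis, linear) of the 6 genes in the 8 groups (x axis), 1 point per library, blue for saline and orange for ketamine, with a line at the group mean and bars of 1 SD. All groups overlap for all 6 genes, which was not counted for other genes. Library 32 at 3.47 CPM of Tap1 and library 25 at 1.76 CPM of Psmb9 stand above the rest of their groups.

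The first question was whether the 2 MSN types carry different amounts of these transcripts on their ribosomes. Over all 39 libraries, D2 against D1 with cycle stage and treatment held fixed, none of the 5 tested genes was called by edgeR's quasi-likelihood test at an adjusted p under 0.1, whereas 31.6% of the 14129 genes tested were called. Tap2 came nearest: its D2 level was higher by a log2 fold change of 0.21 ± 0.11 (SE), with a 95% interval of 0.995-fold to 1.35-fold, an unadjusted p of 0.0577 and an adjusted p of 0.155 by edgeR. Without library 32 that log2 fold change was 0.13. Tap1 had a log2 fold change of 0.14 ± 0.14 (edgeR adjusted p = 0.512), which was -0.02 without library 32. The 2 immunoproteasome subunits lay on the other side of 0, Psmb8 at -0.15 ± 0.28 (edgeR adjusted p = 0.759) and Psmb9 at -0.21 ± 0.23 (edgeR adjusted p = 0.557), and Psmb9 was at -0.04 without library 25. Psmb8 was at -0.02 without library 28 (D1 diestrus ketamine) and at -0.26 without library 37 (D2 proestrus saline). Mx2 was at -0.01 ± 0.14 (edgeR adjusted p = 0.973), with an interval of 0.819-fold to 1.20-fold, and at 0.0018 without library 32. The median of the 5 log2 fold changes was -0.01, beside -0.00325 over all genes tested.

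Among saline rats alone none of the tested genes was called either. The 5 tested genes with both stages joined had log2 fold changes between -0.50 and 0.22 and adjusted p of 0.373 or more, where 28.8% of 13689 genes were called. In proestrus 4 were tested and 5.41% of 13283 genes were called, and in diestrus 3 were tested and 4.11% of 13292 genes were called. The widest value was the -0.95 of Psmb9 in proestrus, where library 25 lies in the D1 group, and it was -0.17 without that library. Leaving out library 25 also brought Mx2 past the threshold in proestrus saline rats, at a log2 fold change of -0.84 and an edgeR adjusted p of 0.0424 with 4 against 5 libraries, from -0.50 and 0.363 with all 10, and 2.82% of all genes were called without it. Those values follow 2 surrogate variables. The plain Mx2 means of all 10 libraries lay the other way, at 8.59 ± 4.23 CPM (SD) in D2 and 8.22 ± 2.88 in D1. Without library 11 (D1 diestrus saline) Psmb9 was called with both stages joined, at -0.81 and an adjusted p of 0.0963 beside 24.1% of all genes, and without library 27 (D1 diestrus saline) Tap2 was called over all libraries, at 0.25 and an adjusted p of 0.0859 beside 30.8%. With 5 or 6 estimated surrogate variables in place of 2, 1 and 3 of the genes were called in these comparisons, as given in the closing section.

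Of 8 glial, vascular and leukocyte genes tested over all libraries, 4 were called, all higher in D2, beside the 31.6% of all genes called in either direction. The endothelial gene Flt1 was higher in D2 by a log2 fold change of 0.78 ± 0.15, the astrocyte gene Gja1 by 0.50 ± 0.10, the oligodendrocyte gene Mog by 0.42 ± 0.11, and the leukocyte gene Ptprc by 0.75 ± 0.29. The astrocyte gene Gfap, at 0.32 ± 0.15, and the 3 microglial genes Aif1, Tmem119 and Itgb2 were not called. Among saline rats with stages joined the same 4 genes were called higher in D2, Flt1 at 0.82, Gja1 at 0.59, Mog at 0.51 and Ptprc at 1.21. In either stage of saline rats alone Ptprc was too low to be tested and none of the other 7 was called. Flt1 stood at 0.80 in proestrus and 0.18 in diestrus, Mog at 0.44 and -0.01, Gja1 at 0.38 and 0.05, Gfap at -0.33 and 0.02, and the median of the microglial genes at 0.58 and -0.44. The summed level of the 3 microglial genes ran from 1.45 to 3.45 CPM in D1 libraries and from 1.16 to 5.41 in D2 libraries, that of the 2 astrocyte genes from 29.0 to 50.8 and from 39.8 to 114, that of Mog from 5.03 to 9.48 and from 5.71 to 16.2, that of Flt1 from 2.01 to 4.67 and from 2.78 to 11.8, and that of Ptprc from 0.0524 to 0.839 and from 0.124 to 1.00. None of these summed levels was at 0 in any library. Their part in the levels of the 6 genes was not tested. In an IP, fewer cells of a type and less RNA per cell cannot be told apart. How RNA of these cell types came into an IP of ribosomes tagged only where Cre was made was not tested.

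The second question was whether ketamine, given repeatedly in 1 cycle stage, left a change. Over all 39 libraries none of the 5 tested genes was called, and 0% of 14129 genes were. The log2 fold changes, ketamine against saline, were 0.01 ± 0.14 for Tap1, -0.15 ± 0.11 for Tap2, -0.05 ± 0.25 for Psmb8, 0.20 ± 0.23 for Psmb9 and 0.19 ± 0.13 for Mx2, each with an edgeR adjusted p of 1. The intervals show what the libraries could have missed: 0.824-fold to 1.22-fold for Tap1, 0.771-fold to 1.05-fold for Tap2, 0.943-fold to 1.37-fold for Mx2, 0.836-fold to 1.57-fold for Psmb9 and 0.679-fold to 1.37-fold for Psmb8. Without library 32 the Mx2 value was 0.11 and the Tap1 value -0.02, and without library 25 the Psmb9 value was 0.36. Ubd, left out by the filter, had 31 counts in the 19 ketamine libraries and 15 in the 20 saline libraries, and 6 and 11 of these libraries were at 0.

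**Figure D3:**
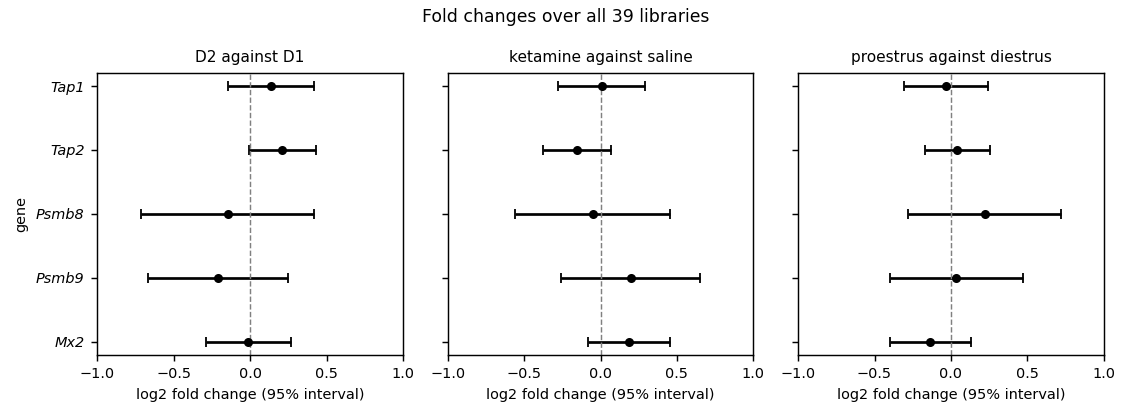
Log2 fold change (x axis) with its 95% interval for Tap1, Tap2, Psmb8, Psmb9 and Mx2 (y axis) in the 3 comparisons over all 39 libraries, from edgeR with 2 surrogate variables. All 15 intervals cover 0, and those of Psmb8 and Psmb9 are the widest.

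Within single groups the D2 proestrus rats held the only values with an unadjusted p under 0.05 of the 73 tests made. Mx2 stood at 7.03, 7.58, 8.24 and 13.3 CPM in the 4 ketamine libraries and at 4.25, 5.37, 7.19, 12.9 and 13.2 CPM in the 5 saline libraries. The 2 lowest saline libraries lay below every ketamine library, above which the ranges overlapped, and the means of 9.03 ± 2.87 and 8.59 ± 4.23 CPM (SD) were close. After 2 surrogate variables, edgeR gave Mx2 a log2 fold change of 0.69 ± 0.19, with an unadjusted p of 0.00416 and an adjusted p of 0.999, where 0% of 13414 genes were called and 457 had an unadjusted p under 0.05. With no surrogate variables the same value was 0.08, with blocks of 8 consecutive library numbers in their place, an order that no label names, it was 0.01, and in a single model of all 39 libraries it was 0.29. Without library 22, the deepest of the series with 570 counts of Mx2, it was 0.41.

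Tap2 in the same rats had 2.91, 3.35, 4.10 and 4.75 CPM after ketamine and 2.60, 4.54, 4.63, 4.84 and 5.72 CPM after saline, so that 4 of the 5 saline libraries lay above 3 of the 4 ketamine libraries and the ranges overlapped. Its log2 fold change was -0.49 ± 0.22, with an unadjusted p of 0.0446 and an adjusted p of 0.999 by edgeR. It was -0.25 with no surrogate variables and -0.12 with blocks of library numbers. Neither gene passed the threshold. The test of whether ketamine acted differently in the 2 cell types in proestrus gave an edgeR adjusted p of 0.999 for both, at 0.72 ± 0.36 for Mx2 and -0.51 ± 0.30 for Tap2, and 0% of 13774 genes were called in it.

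In the other 3 groups of ketamine against saline none of the 4 tested genes was called. Their log2 fold changes ran from -0.33 to 0.07 in D1 proestrus rats, where 0.00759% of 13183 genes were called, from -0.33 to 0.24 in D1 diestrus rats, where 0.0227% of 13214 genes were, and from 0.02 to 0.37 in D2 diestrus rats, where 0% of 13455 genes were. For all 6 genes, the range of the ketamine libraries overlapped that of the saline libraries in each of the 4 pairs of groups. How many of all genes overlapped in the same way was not counted, so the overlap is not a trait of these genes. Leaving out library 25 turned D1 proestrus Psmb9 from -0.33 to 0.29 and Mx2 from 0.07 to -0.13. Leaving out library 32 moved D2 diestrus Mx2 from 0.02 to -0.05, Psmb9 from 0.37 to 0.51, Tap1 from 0.18 to 0.14 and Tap2 from 0.08 to 0.12.

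**Figure D4:**
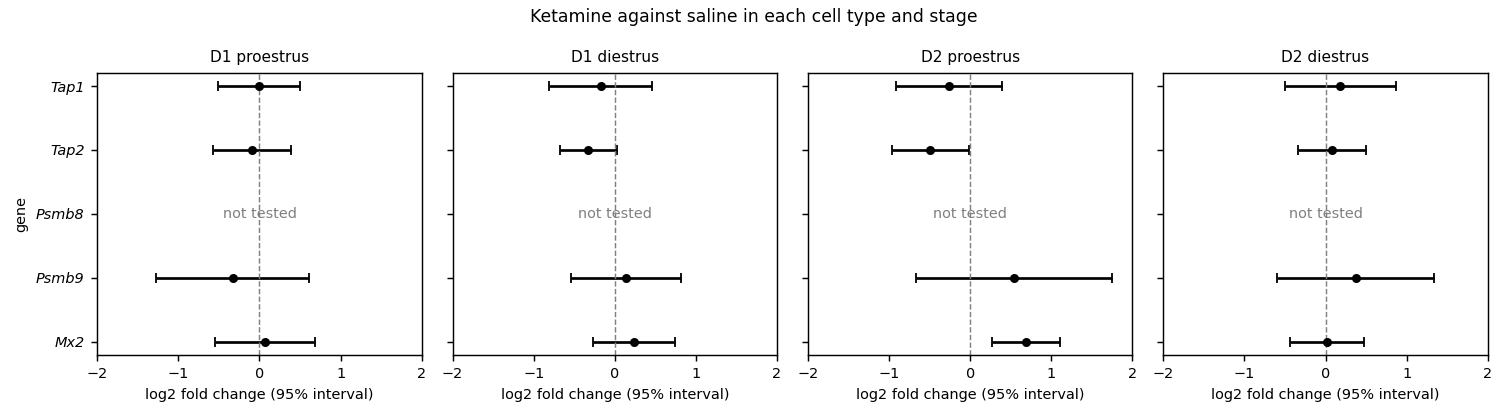
Log2 fold change of ketamine against saline (x axis) with its 95% interval for 5 genes (y axis) in D1 and D2 rats treated in proestrus or diestrus, from edgeR with 2 surrogate variables. Only the intervals of Mx2 and Tap2 in D2 proestrus rats leave out 0, both with an adjusted p of 0.999, and Psmb8 was too low to be tested in these groups.

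The third question was the cycle stage. Proestrus against diestrus over all 39 libraries gave no call among the 5 tested genes, beside 0.00708% of 14129 genes. The log2 fold changes were -0.03 ± 0.14 for Tap1, 0.04 ± 0.11 for Tap2, 0.22 ± 0.25 for Psmb8, 0.03 ± 0.22 for Psmb9 and -0.14 ± 0.13 for Mx2, with adjusted p between 0.784 and 0.980 by edgeR. The Tap1 value was 0.06 without library 32 and the Psmb9 value -0.14 without library 25. In saline rats alone 4 genes were tested in D1 and 3 in D2, none was called, and 0% of 13183 and 0% of 13340 genes were. The test of whether stage acted differently in the 2 cell types of saline rats called 0 of 5 genes, and 0% of 13689 genes.

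Across the 17 comparisons, 73 tests were made on these genes and edgeR called 0 of them, with 2 at an unadjusted p under 0.05. The lowest adjusted p of these tests was the 0.155 of Tap2 in D2 against D1. DESeq2 with the same surrogate variables also called 0, where it called 32.3% of all genes in D2 against D1 over all libraries. With an estimated number of surrogate variables, edgeR called Psmb9 in D2 against D1 in saline rats of both stages. Over all libraries it then called Tap2, Psmb8 and Psmb9, as given in the closing section. The remaining interactions, ketamine by stage in D1 and in D2 and ketamine by cell type in diestrus, called none of 4, 5 and 4 tested genes and 0% of 13593, 13881 and 13738 genes.

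The other genes of these pathways were counted from fixed lists, of which few had an identifier paired with a symbol. Of 23 genes of MHC class I processing and presentation 5 were paired, of 10 class II genes 3, of 46 interferon-induced genes 6, of 7 interferon receptor and signal genes 1, and of the 3 constitutive proteasome subunits and 3 FAT10 partners none. Over all libraries, D2 against D1, 0 of 5 tested class I genes, 0 of 1 class II gene, 0 of 1 interferon-induced gene and 1 of 1 receptor gene were called, beside the 31.6% of all genes. That one was Ifngr2, the signalling chain of the interferon gamma receptor, lower in D2 by a log2 fold change of -0.10 ± 0.04 (edgeR adjusted p = 0.0396). Next was RT1-S3, an MHC class I gene, at 0.19 ± 0.09 (adjusted p = 0.109), and then Canx, a chaperone of class I folding, at -0.04 ± 0.02 (adjusted p = 0.315). Among saline rats with stages joined, Ifngr2 was lower in D2 by -0.17 ± 0.05 (adjusted p = 0.0163) and Canx by -0.11 ± 0.05 (adjusted p = 0.0968), where 28.8% of all genes were called. The median log2 fold change of the 5 class I genes over all libraries was 0.07.

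For ketamine and for stage over all libraries no gene of these lists was called. The lowest unadjusted p for ketamine was that of RT1-DOb, the class II gene beside Tap2, at a log2 fold change of 0.58 ± 0.27 (unadjusted p = 0.0381, adjusted p = 1 by edgeR). RT1-DOb was itself near the limit, with a median of 4 counts per library (0 to 17). The next 2 were RT1-S3 at -0.14 ± 0.09 and Calr, a chaperone of peptide loading, at -0.05 ± 0.03. For stage the lowest adjusted p were 0.803 for RT1-N3, at -0.34 ± 0.35, 0.807 for Ifngr2, at -0.03 ± 0.04, and 0.881 for Canx, at 0.02 ± 0.02. RT1 genes are near copies of each other, and their split of reads is uncertain. Most interferon-induced genes with a value were, like Ubd, near the limit: Oas1a was at 0 in 21 of 39 libraries, Oasl in 17, Mx1 in 9, Ifi47 in 7, Trim25 in 2 and Socs1 in none, with medians of 0 to 6 counts.

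Library 32 stood high in several of these genes at once, a pattern singled out after its Tap1 value had been seen. It had the highest level of the 39 libraries in 3 of the 6 genes, Tap1, Tap2 and Mx2 (13.8 CPM), and in 5 of the 15 other genes of the pathway lists, RT1-S3, Canx, Oas1a, Ifi47 and Socs1. RT1-S3 stood at 7.80 CPM, where the other 38 libraries had at most 6.66. The lead was small in Canx (635 against at most 626 CPM) and Ifi47 (7 against at most 6 counts), and library 39 had the same 5.83 CPM of Tap2. Oas1a had 14 counts, where none of the others had more than 7, and Socs1, an inhibitor of interferon signalling, had 23 counts, where none of the others had more than 17. Mx1 also had 14 counts there, ranked 3 among the 39. Psmb8 (9 counts) and Psmb9 (17 counts) ranked 19 and 10 in this library, and Ubd was at 0. Of the 8 pathway genes that passed the filter on low counts it was the highest in 3 (RT1-S3, Canx and Socs1), and of the 14129 genes that passed it in 7.49%, the third largest share of any library. Beside these values stand its Adora2a level of 453 CPM and its Rgs9 level of 205 CPM, and the ranks of its glial, vascular and leukocyte genes from the highest of 39: Gfap 2 (42.9 CPM), Gja1 4 (37.7 CPM), Mog 5 (12.0 CPM), Flt1 6 (7.29 CPM), Aif1 and Tmem119 both 8, Ptprc 10 and Itgb2 23. Their part in these levels was not tested.

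For the 4 genes with a median of at least 10 counts, those whose pattern over the 39 libraries was most like theirs were sought by Spearman correlation of log2 CPM among the 14128 other genes that passed the filter. The 3 closest with a paired symbol are named for each, and genes without one often ranked above them: the named genes ranked between 1 and 54 of all. The points share groups, library depth and any library-wide differences, so the values are a description. Tap1 was most like Uchl5 (0.472), Tap2 (0.466) and Rchy1 (0.464). Tap2 was most like Cabp1 (0.562), Abcb9 (0.513) and Rchy1 (0.506). Psmb9 was most like Champ1 (0.495), Tec (0.460) and Mettl7a (0.437), and Mx2 was most like Ripk4 (0.663), Pi16 (0.526) and Arl6 (0.522). Pearson correlations of these 12 pairs lay between 0.410 and 0.599.

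Of the 10 pairs among the 5 genes other than Ubd, Tap1 and Tap2 were the closest: Tap2 ranked 17 among all genes for likeness to Tap1, and 34 without library 32, where the correlation was 0.423. In the other direction Tap1 ranked 101 for likeness to Tap2, and 183 without library 32. The neighboring Psmb9 had 0.0690 with Tap1 and -0.211 with Tap2, and Psmb8 had 0.0401 with Tap1 and 0.176 with Psmb9, in counts too low to carry much. Mx2 and Tap2 went in opposite directions across libraries, at -0.440, and at -0.557 without library 32. The Spearman correlation with the summed level of the 5 glial, vascular and immune marker lists ran from -0.0745 to 0.0207 for Tap1, from -0.0619 to 0.217 for Tap2 and from -0.0245 to 0.225 for Mx2. For Psmb8 it ran from 0.134 (astrocyte genes) to 0.312 (microglial genes), and for Psmb9 from -0.348 (Ptprc) to 0.138 (Flt1). Tap1 had -0.368 with the library total, and Mx2 had 0.251 with it and 0.278 with Rgs9.

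**Figure D5:**
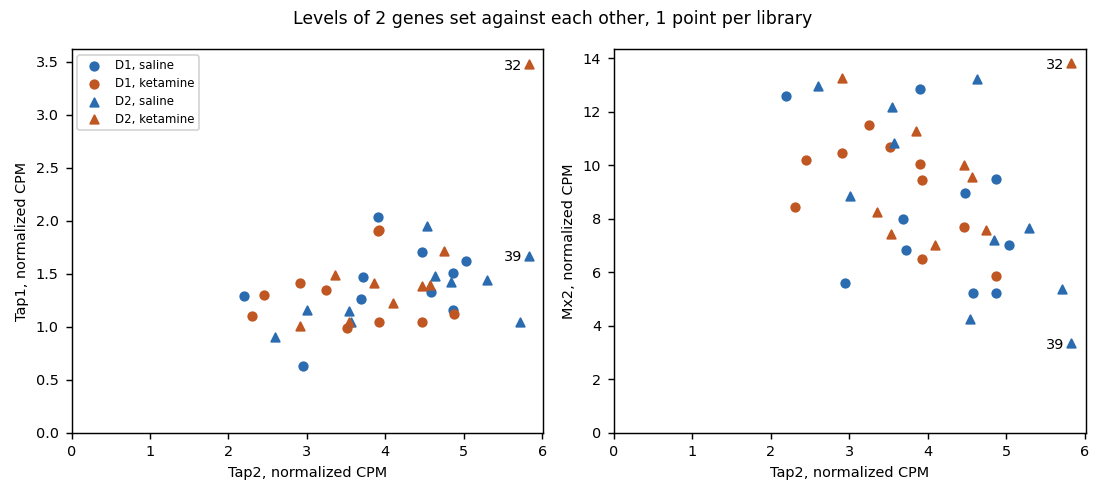
Normalized CPM of Tap1 (left, y axis) and Mx2 (right, y axis) against Tap2 (x axis), 1 point per library, circles for D1, triangles for D2, blue for saline and orange for ketamine. Tap1 and Tap2 rise together (Spearman 0.466) and Mx2 falls as Tap2 rises (-0.440), with libraries 32 and 39 marked at the highest Tap2 level of 5.83 CPM.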

How the data were processed

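Polyribosomal RNA from the NAc was sequenced as stranded libraries, 39 in the table used. The authors trimmed reads with fastp 0.23.4, checked them with FastQC 0.12.1, and quantified transcripts of mRatBN7.2 with Salmon 1.10.2. The deposited values are estimated counts per gene, with whole numbers and no normalization, and the authors tested them with DESeq2 1.42.1. The 6 genes and the gene lists were chosen with earlier results of these data known. Groups came from the sample titles. Symbols were taken from the study's tables, which paired 1966 of 23978 identifiers.

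Genes were kept by edgeR's filterByExpr (minimum count 10), scaled by TMM, and fitted with edgeR 4.0.16's robust quasi-likelihood test and 2 surrogate variables from sva 3.50.0 in R 4.3.3. Genes at a Benjamini-Hochberg adjusted p under 0.1 were called. Fold changes are given for every tested gene over all libraries, and elsewhere for those called or with an unadjusted p under 0.05 and their interactions; others are given as ranges, or where leaving out a library moved them. Log2 CPM used a prior count of 2. Settings tried were no or more surrogate variables, DESeq2 1.42.0, its size factors, no filter, a threshold of 0.05, blocks of 8 consecutive library numbers (a guess at processing order that no label names), a single model, and each library left out. The fits were tested on simulated data. Rats of a group can share a litter, which no label gives and no fit held fixed, and p-values measure the spread between rats. Not every gene of the lists is reported here.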

Additional observations from a re-analysis of the deposited data

Results flagged for a closer look

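In 5 of 48 sets of a gene in a group, 1 library lay far from the rest by Dixon's criterion, where chance alone gives about 1 in 20, or 2.4. Tap1 in library 32 of the D2 diestrus ketamine group was at 3.47 CPM (81 counts), beside 1.04 to 1.41 CPM in the other 4. Psmb9 in library 25 of the D1 proestrus saline group was at 1.76 CPM (41 counts), beside 0.289 to 0.599 CPM. Psmb8 in library 28 of the D1 diestrus ketamine group was at 0.794 CPM (16 counts), beside 0.214 to 0.350 CPM. The 2 for Ubd rest on very few reads: library 3 of the D1 diestrus saline group was at 0.151 CPM on 3 counts, and library 20 of the D1 diestrus ketamine group at 0.192 CPM on 4 counts. No interaction was called for any of these genes.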

How the results depend on the processing

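No paired analysis was possible because no library number occurs in more than 1 group, and the blocks of 8 consecutive numbers are a guess at processing order. None of the genes was called in 109 of 111 alternative fits that could have differed and 311 of 314 fits with 1 library left out. With the number of surrogate variables estimated, 5 for saline rats of both stages and 6 over all libraries, D2 against D1 called 1 gene in the former, beside 25.8% of all genes (Psmb9, log2 fold change -0.98, adjusted p = 0.0344), and 3 in the latter, beside 23.2% (Tap2 at 0.33, Psmb8 at -0.79 and Psmb9 at -0.67, adjusted p = 0.0912, 0.0613 and 0.0956). With 1 library left out, 0 to 1 genes were called in D2 against D1 over all libraries, in saline rats of both stages and in saline proestrus rats, beside 29.1% to 33.9%, 8.96% to 30.6% and 2.16% to 12.7% of all genes, and none elsewhere. The cause was not tested.

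Of the log2 fold changes over all libraries, D2 against D1 changed sign for Psmb8 with no surrogate variables (0.036) and with blocks of library numbers (0.012), and for Mx2 with none (0.12), with an estimated number (0.080) and with blocks (0.098). Psmb8 for ketamine was 0.0048 with none. With 1 library left out, values ran for D2 against D1 from -0.020 to 0.19 (Tap1) and from -0.058 to 0.084 (Mx2), for ketamine from -0.045 to 0.049 (Tap1) and from -0.13 to 0.049 (Psmb8), and for stage from -0.079 to 0.056 (Tap1) and from -0.14 to 0.10 (Psmb9). Over all libraries 81 of 90 refitted values and 543 of 585 with 1 library left out kept their sign and stayed uncalled, and 3 and 1 kept their sign and were called. In D2 proestrus rats Mx2 ran from 0.0086 to 0.69 and Tap2 from -0.49 to -0.12 over the alternatives, uncalled in each. No group mean moved by 1 SD under either other scaling in 96 checks. A correlation of 0.522 between Mx2 and Arl6 became 0.637 without library 32, an alternative chosen after seeing the data. Depth limits Ubd, Psmb8 and Psmb9 most.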
